A study of Homo sapiens with 4 samples.

Results

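The genes described here encode the enzymes and membrane carriers that take glucose through glycolysis to lactate, together with the enzymes that set the level of its main activator and the branch toward the pentose phosphate pathway. There were 30 of them among the 58735 genes of the deposited tables. They were chosen by symbol, as known components of the pathway, and the rule names no measured value. Earlier results of these data were known when they were chosen. All 30 symbols matched a gene ID through the names of GENCODE release 29.

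The study measured transcripts by RNA-seq in 4 libraries labelled as Huh7, a cell line derived from a human liver cancer. The 2 libraries named shCtrl carried a control short hairpin RNA, and the 2 named shNME7 carried a hairpin against NME7, a gene of the nucleoside diphosphate kinases. Total RNA was used for all 4 libraries, and the labels name no drug, time point, hairpin sequence or cell clone. The labels do not say whether a group's libraries came from separate cultures. The p-values below thus reflect only how far these samples spread, and that spread may be technical. Values are FPKM, fragments relative to exon length and sequencing depth, and group values are means ± SD with n = 2 per group.

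The libraries held between 14877906 and 16991397 fragments. NME7 itself had 3.64 and 3.93 FPKM in the control libraries 1 and 2 against 0.835 and 0.626 FPKM in shNME7 1 and 2, so the targeted gene was low where the labels placed the hairpin. Its log2 difference was -1.47 with a limma-trend adjusted p of 0.310, and limma-voom on recovered fragments gave -2.39 with an adjusted p of 0.000998. The cell type label was not borne out by its markers. Of 12 hepatocyte and hepatoma markers none reached a mean of 1 FPKM, and APOA1, APOB, FGB and GPC3 had no fragment in any library. Albumin (ALB) had 1 fragment and alpha-fetoprotein (AFP) 1 fragment over all 4 libraries. The summed level of these 12 markers was 0.322 to 0.434 FPKM in shCtrl and 0.148 to 0.391 FPKM in shNME7. Of 8 fibroblast markers 4 reached a mean of 1 FPKM, while COL1A2, DCN and THY1 stayed below it and PDGFRA had no fragment in any library. The 8 together summed to 92.2 to 103 FPKM in shCtrl and 97.3 to 98.7 FPKM in shNME7, most of it COL3A1. Of 8 leukocyte markers none reached a mean of 1 FPKM, and of 7 endothelial markers CDH5 alone did. The cells are therefore called the libraries labelled Huh7.

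Glycolysis splits glucose into pyruvate in the cytosol and yields ATP and NADH. Lactate dehydrogenase reduces pyruvate to lactate and so returns NADH to NAD+, and monocarboxylate transporters carry the lactate across the membrane. Most steps have several isoforms encoded by separate genes. Normal hepatocytes use the glucose transporter SLC2A2 and the liver pyruvate kinase PKLR, whereas proliferating and cancer cells mostly use SLC2A1, HK2 and PKM. Lactate dehydrogenase is a tetramer of A and B subunits. LDHA-rich tetramers are known for lactate production, and LDHB-rich tetramers for the use of lactate in heart and other oxidative tissue.

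The results on lactate dehydrogenase turn on LDHA and LDHB, and the sequences before a RefSeq transcription start of each are shown because the subunits differed in how they stood in the groups. The sequences come from RefSeq on GRCh38.p14 and were searched on both strands for ACGTG and GCGTG, the core letters of hypoxia response elements, and for CACGTG, the E-box bound by MYC family proteins, which contains ACGTG. Capitals mark matches. The LDHA stretch is chr11:18394313-18394387 on the plus strand, the first 75 bases of the 250 searched. The LDHB stretch is chr12:21657843-21658092 on the minus strand, all 250 bases searched.
LDHA: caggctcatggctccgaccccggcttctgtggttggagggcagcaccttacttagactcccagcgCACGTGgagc
LDHB: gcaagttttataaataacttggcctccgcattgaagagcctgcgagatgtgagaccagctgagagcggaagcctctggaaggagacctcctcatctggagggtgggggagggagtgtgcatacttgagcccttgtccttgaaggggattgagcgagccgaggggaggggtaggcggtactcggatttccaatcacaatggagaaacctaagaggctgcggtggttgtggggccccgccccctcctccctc
The 250 bases before this LDHA start held 3 separate matches, 2 of them CACGTG, and the printed stretch holds the first of these. RefSeq lists 2 starts for LDHA, and the one nearest the 5′ end of the gene was taken. GENCODE transcripts of both genes also start further upstream than these RefSeq starts, so the LDHB window and the unprinted part of the LDHA window lie within the gene spans given below. The LDHB window held none of the 3 motifs. The table held promoters for 27 of the 30 genes and none for PFKFB2, SLC2A3 and SLC16A1. ACGTG occurred in 34.5% of the 55 promoters of these 27 genes and in 18.5% of all 35116 promoters. GCGTG occurred in 27.3% and 32.2%, and CACGTG in 12.7% and 6.34%. These matches describe letters and show neither binding nor its absence.

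The comparison asked how transcript levels differ when NME7 is targeted. Of the 30 genes, 26 had a mean of at least 1 FPKM over the 4 libraries and entered the test, limma-trend on log2(FPKM + 1) with Benjamini-Hochberg adjustment over 12866 genes. None of the 26 passed an adjusted p of 0.05, and the test called 0.0% of all genes. At an unadjusted p under 0.05 there were 2, LDHB and SLC2A3, where 6.68% of all tested genes reached that level. limma-voom on the recovered fragments called none of 27 of these genes, with a background of 0.106% called. Both libraries of one group lay above both of the other for 11 of the 26 genes. PFKM, PGK1, PGAM1, ENO1, ENO2, ENO3 and LDHB were higher in both shNME7 libraries (26.9%, against 17.8% of all tested genes). GPI, GAPDH, SLC2A1 and SLC2A3 were lower in both (15.4%, against 18.4%). The median log2 difference of shNME7 minus shCtrl was 0.02 over the 26 genes and 0.01 over all tested genes. Of the 26 genes 88.5% differed by at most 0.3 in log2, against 82.2% of all tested genes. Less RNA per cell and fewer cells that express a gene cannot be told apart in bulk libraries.

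**Figure D1:**
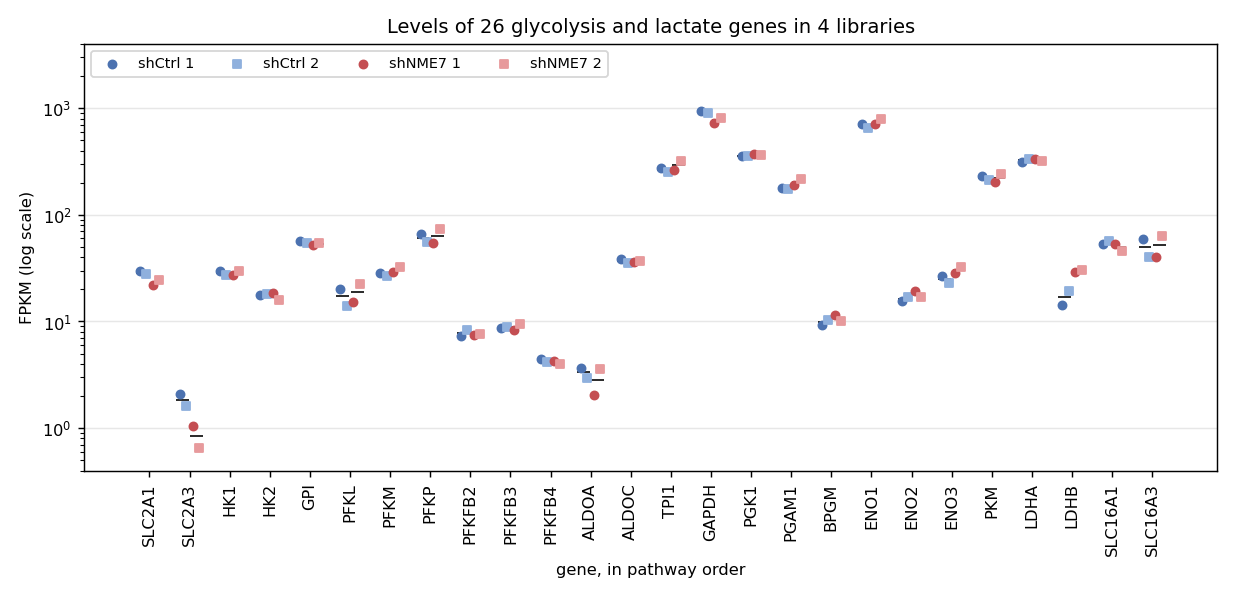
FPKM of the 26 tested genes in each library, on a log axis and in pathway order, with a circle or square for each library and a short black bar for the mean of each group. Levels run from under 1 FPKM for SLC2A3 in shNME7 2 to 932 FPKM for GAPDH in shCtrl 1, and the 4 libraries of most genes lie close together.

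**Figure D2:**
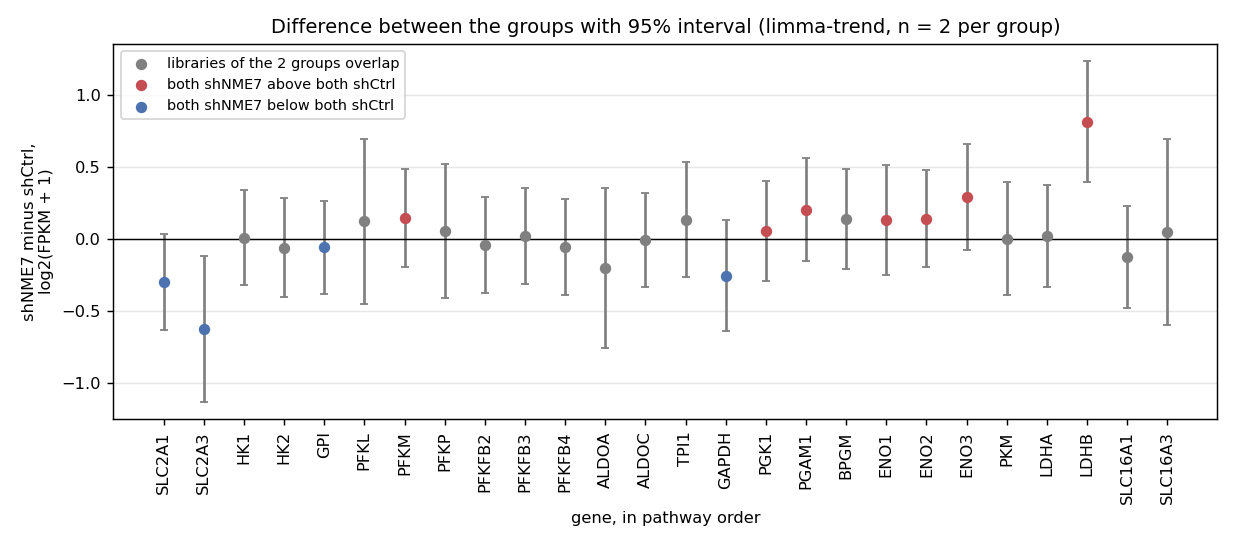
Difference of shNME7 minus shCtrl on the log2(FPKM + 1) scale for each tested gene, with its 95% interval from limma-trend (n = 2 per group). LDHB (0.81) and SLC2A3 (-0.63) have intervals that leave out 0, before adjustment for the number of genes tested, and red and blue points mark genes whose groups do not overlap.

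Together the 30 genes took 1.68% of all fragments in shCtrl 1 and 1.60% in shCtrl 2, and 1.60% and 1.73% in shNME7 1 and 2. The Wilson 95% intervals, which cover counting error only, were 1.67% to 1.69%, 1.59% to 1.61%, 1.59% to 1.60% and 1.72% to 1.73%. The groups overlapped. The 2 libraries of the highest share, shCtrl 1 and shNME7 2, also had the lower mitochondrial share of fragments, 4.76% and 4.24%, against 5.92% in shCtrl 2 and 6.59% in shNME7 1. Of the 26 genes, 8 had both shCtrl 1 and shNME7 2 above shCtrl 2 and shNME7 1, namely HK1, PFKL, PFKP, ALDOA, ALDOC, TPI1, PKM and SLC16A3 (30.8%, against 25.4% of all tested genes). The reverse order held for HK2, LDHA, SLC16A1 and BPGM (15.4%, against 23.2%). The part of the mitochondrial share in these levels was not tested. Over all tested genes the group difference also followed the GC content of the transcripts (Spearman rho 0.41 over 12857 genes, and genes are no independent replicates).

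Glucose entry rested on SLC2A1, the widely expressed glucose transporter GLUT1. SLC2A1 stood at 29.8 FPKM in shCtrl 1, 27.7 FPKM in shCtrl 2, 22.0 FPKM in shNME7 1 and 24.3 FPKM in shNME7 2. Below, the values of a group are given in this order of libraries. Both shNME7 libraries were below both shCtrl libraries, with means of 28.7 ± 1.51 and 23.2 ± 1.67 FPKM, or 1.24-fold lower in shNME7. The log2 difference was -0.30 (SE 0.14, 95% interval -0.64 to 0.03), and the limma-trend adjusted p was 0.787.

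SLC2A3, which encodes the high-affinity neuronal and placental transporter GLUT3, was low and lay lower still in the shNME7 libraries. It stood at 2.09 and 1.60 FPKM in shCtrl and at 1.05 and 0.650 FPKM in shNME7, from 205, 159, 97 and 68 fragments. The groups did not overlap, and the means of 1.85 ± 0.347 and 0.849 ± 0.281 FPKM gave a 2.17-fold lower level in shNME7. The log2 difference was -0.63 (SE 0.21, 95% interval -1.13 to -0.12) with a limma-trend adjusted p of 0.728. On recovered fragments limma-voom gave -1.16 (SE 0.29) with an adjusted p of 0.207. SLC2A14, a close copy of SLC2A3 nearby on the same chromosome whose fragments may be hard to assign, had 3 fragments in shCtrl 2 and 0 in the other libraries. SLC2A2, the transporter of normal hepatocytes, had 0 fragments in all 4 libraries, and a count of 0 allows up to 3 fragments, or 0.0517 to 0.0584 FPKM.

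SLC2A1 exceeded SLC2A3 by 14.3-fold and 17.3-fold in shCtrl and by 21.0-fold and 37.4-fold in shNME7, on FPKM, which is scaled to gene length. The ratio was higher in both shNME7 libraries, 29.2 ± 11.7 against 15.8 ± 2.15. With 2 libraries per group the exact two-sided permutation test has 6 splits and cannot give a p below 0.333, which was its value here (1.0 after adjustment over the 12 ratios computed). The log2 difference of this ratio, 0.84, moved to 0.42 without shNME7 2. On the log2(FPKM + 1) scale, which understates differences of low genes, it was 0.32. Removing the GC and length trend on that same scale took it from 0.32 to 0.21.

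Hexokinase traps glucose in the cell as glucose 6-phosphate, the substrate shared by glycolysis and the pentose phosphate pathway. HK1, the housekeeping isoform, stood at 29.6 and 27.2 FPKM in shCtrl and at 27.3 and 29.8 FPKM in shNME7. HK2, the isoform most tied to cancer cells, stood at 17.7 and 18.1 FPKM in shCtrl and at 18.5 and 15.7 FPKM in shNME7. Neither gene separated the groups, and the log2 differences were 0.01 for HK1 (95% interval -0.33 to 0.34) and -0.06 for HK2 (95% interval -0.41 to 0.29). HK1 made up 58.6% to 64.5% of the summed hexokinase FPKM in the 4 libraries, HK2 34.1% to 39.8% and HKDC1 1.1% to 1.8%. HK3 had no fragment in any library. GPI, which turns glucose 6-phosphate into fructose 6-phosphate, stood at 56.3 and 54.1 FPKM in shCtrl and at 51.8 and 53.9 FPKM in shNME7. The groups did not overlap, but the gap between the nearest libraries was small beside the spread within each group, and the log2 difference was -0.06 (95% interval -0.38 to 0.26).

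Phosphofructokinase commits fructose 6-phosphate to glycolysis and is the main control point of the pathway. Its platelet-type subunit PFKP was the most abundant of the family, at 66.8 and 55.5 FPKM in shCtrl and 54.6 and 73.4 FPKM in shNME7. The muscle-type subunit PFKM stood at 28.6 and 26.7 FPKM in shCtrl and at 28.9 and 32.5 FPKM in shNME7. The liver-type subunit PFKL was the least abundant, at 20.2 and 14.1 FPKM in shCtrl and at 15.3 and 22.3 FPKM in shNME7. PFKM was higher in both shNME7 libraries by a narrow margin (log2 difference 0.14, 95% interval -0.20 to 0.48), and PFKP and PFKL overlapped between the groups. PFKP held 55.3% to 57.8% of the summed phosphofructokinase FPKM, PFKM 24.8% to 29.2% and PFKL 14.6% to 17.5%. The liver-type subunit was thus the smallest share in every library. The ratio of PFKL to PFKP was 0.30 and 0.25 in shCtrl and 0.28 and 0.30 in shNME7.

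PFKFB enzymes make and break fructose 2,6-bisphosphate, the strongest activator of phosphofructokinase, and TIGAR removes it and thereby favours the pentose phosphate branch. PFKFB3 stood at 8.69 and 8.87 FPKM in shCtrl and at 8.30 and 9.56 FPKM in shNME7. It is the isoform with the highest ratio of kinase to phosphatase activity. PFKFB2, known from heart, stood at 7.34 and 8.40 FPKM in shCtrl and at 7.54 and 7.65 FPKM in shNME7. PFKFB4 stood at 4.42 and 4.19 FPKM in shCtrl and at 4.22 and 3.97 FPKM in shNME7. All 3 overlapped between the groups, with log2 differences of 0.02, -0.04 and -0.06. PFKFB3 held 41.2% to 45.1% of the family's summed FPKM, PFKFB2 35.7% to 39.0% and PFKFB4 18.7% to 21.5%. PFKFB1, the liver isoform, had 3 fragments in each shCtrl library and 0 in each shNME7 library, at or below the 3 fragments that a count of 0 allows. TIGAR was not tested, with 18 and 12 fragments in shCtrl and 16 and 18 in shNME7, or 0.185 to 0.282 FPKM.

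**Figure D3:**
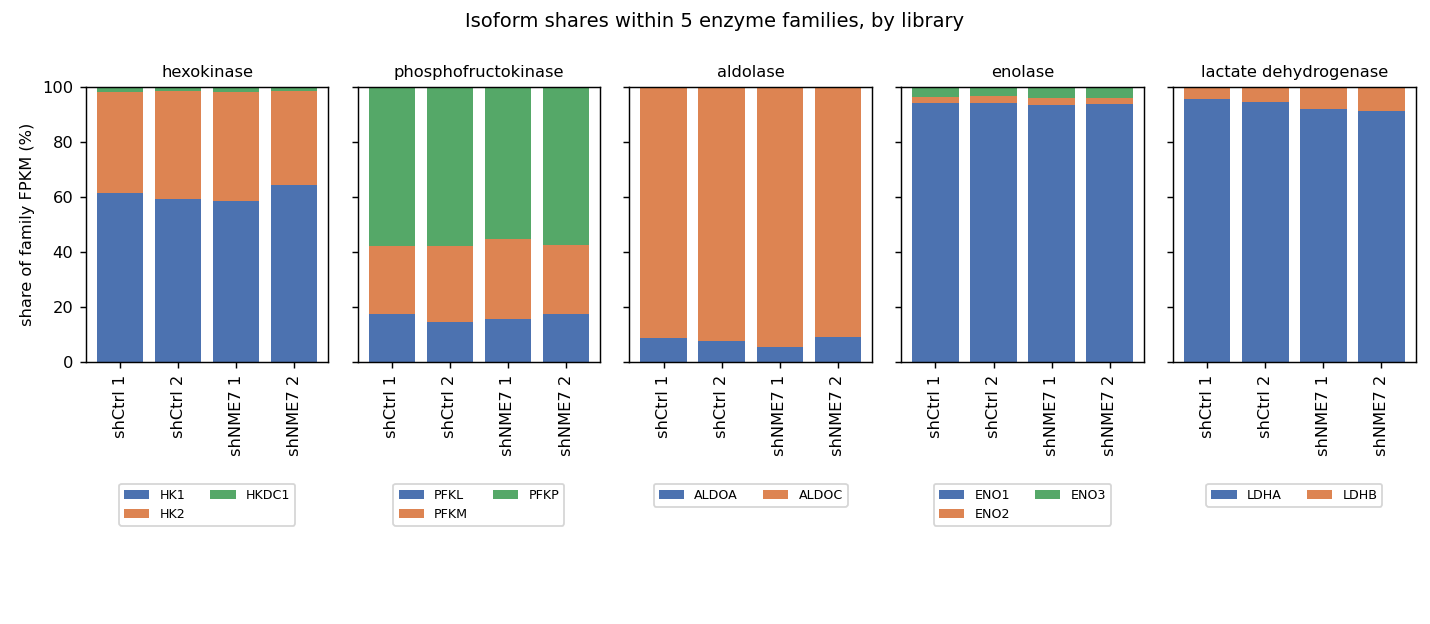
Share of each isoform that reached 1% in the summed FPKM of its family, as stacked bars for each library and for 5 enzyme families. On the deposited values, hexokinase is led by HK1, phosphofructokinase by PFKP and aldolase by ALDOC in all 4 libraries. Enolase is led by ENO1 and lactate dehydrogenase by LDHA in all 4 libraries. The LDHB share is 4.3% and 5.5% in shCtrl and 8.0% and 8.7% in shNME7. ALDOA and LDHB have most of their coding bases in common with another gene, so their shares are uncertain.

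Aldolase splits fructose 1,6-bisphosphate into 2 triose phosphates. ALDOC, known as the brain isoform, stood at 38.5 and 35.4 FPKM in shCtrl and at 36.5 and 36.7 FPKM in shNME7, a log2 difference of -0.01 (95% interval -0.34 to 0.31). ALDOA, the isoform of muscle and most other tissues, stood at only 3.69 and 2.96 FPKM in shCtrl and at 2.06 and 3.59 FPKM in shNME7, from 121 to 239 fragments. The ALDOA groups overlapped, and the log2 difference was -0.20 (95% interval -0.76 to 0.35). The ALDOA level is uncertain. In GENCODE 42.3% of its exon bases and 93.8% of its coding bases also belong to exons of AC093512.2, another protein-coding gene on the same strand, which had 68 and 63 fragments in shCtrl and 65 and 87 in shNME7. How the authors counted fragments in shared exons is not given in the sources used here. As deposited, ALDOC made up 91.1% to 94.6% of the summed aldolase FPKM and ALDOA 5.3% to 8.9%. When the shared bases were left out of the ALDOA length, its share of ALDOA and ALDOC together was 14.3% and 12.7% in shCtrl and 8.90% and 14.5% in shNME7.

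The same overlap touched LDHB and TIGAR. LDHB shares 33.4% of its exon bases and 93.5% of its coding bases with AC010197.2, which had 0 fragments in all 4 libraries. TIGAR shares 42.6% and 96.0% with AC008012.1, also at 0 in all 4. In the other 27 genes at most 5.07% of exon bases were shared on the same strand. Levels of ALDOA, LDHB and TIGAR relative to other genes are therefore uncertain. Each gene was counted over the same annotation in every library. Which exons the fragments of these genes came from is not known, so a difference between libraries may not hold for the whole gene. Pseudogenes named after them exist for 12 of the 30 genes, 105 in all, and in the tested genes they took at most 4.88% as many fragments as the gene itself.

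**Figure D4:**
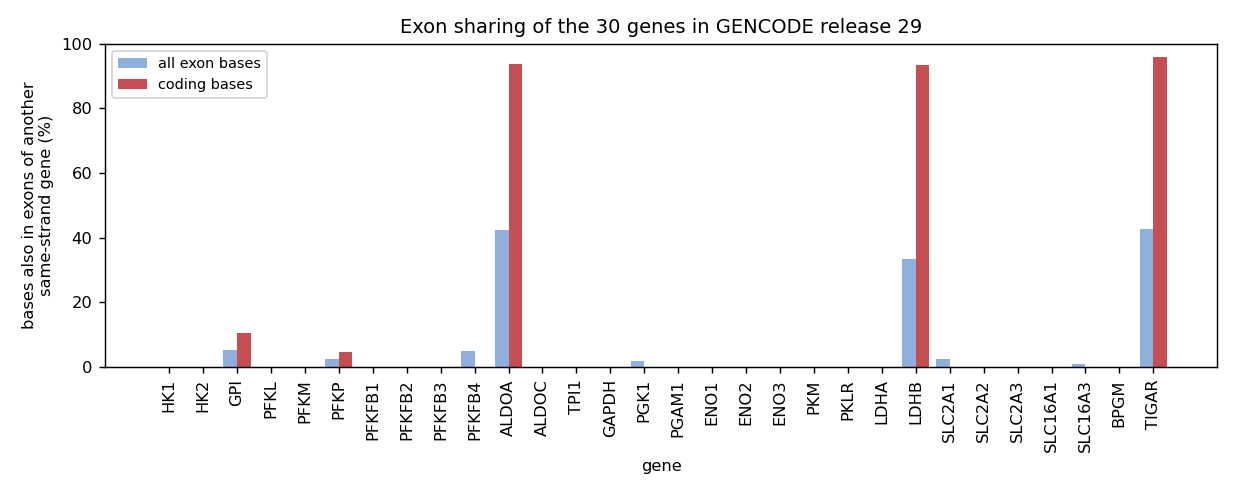
Share of exon bases (blue) and coding bases (red) of each of the 30 genes that also lie in exons of another gene on the same strand, in GENCODE release 29. ALDOA, LDHB and TIGAR stand above 90% of coding bases, and no other gene reaches 20%.

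The triose steps that follow include GAPDH, the most abundant transcript of the 30 genes. TPI1, which interconverts the 2 triose phosphates, stood at 275 and 252 FPKM in shCtrl and at 262 and 319 FPKM in shNME7. GAPDH, which oxidises glyceraldehyde 3-phosphate and makes NADH, stood at 932 and 906 FPKM in shCtrl and at 726 and 815 FPKM in shNME7. By mean FPKM GAPDH ranked 23 among all 58735 genes, and it is widely used as a reference gene. Both shNME7 libraries were below both shCtrl libraries, with means of 919 ± 18.4 and 771 ± 63.6 FPKM, or 1.19-fold lower in shNME7. The log2 difference of GAPDH was -0.26 (SE 0.16, 95% interval -0.64 to 0.13), with a limma-trend adjusted p of 0.813 and a limma-voom adjusted p of 0.697. It reached -0.39 with the GC and length trend removed.

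The next enzymes stood the other way. PGK1, the first step of glycolysis to make ATP, stood at 360.0 and 353 FPKM in shCtrl and at 375 and 365 FPKM in shNME7. PGAM1, which moves the phosphate from carbon 3 to carbon 2 of glycerate, stood at 179.7 and 175 FPKM in shCtrl and at 191 and 218 FPKM in shNME7. Both genes were higher in both shNME7 libraries, with log2 differences of 0.05 for PGK1 (95% interval -0.30 to 0.40) and 0.20 for PGAM1 (95% interval -0.16 to 0.56). BPGM, which makes the side product 2,3-bisphosphoglycerate, stood at 9.28 and 10.3 FPKM in shCtrl and at 11.6 and 10.2 FPKM in shNME7. The BPGM groups overlapped. PGAM1 exceeded BPGM by 19.4-fold and 16.9-fold in shCtrl and by 16.5-fold and 21.4-fold in shNME7.

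Enolase makes phosphoenolpyruvate, and ENO1, ENO2 and ENO3 were higher in both shNME7 libraries. ENO1, the form of most tissues, stood at 704 and 659 FPKM in shCtrl and at 710.3 and 785 FPKM in shNME7. ENO3, the muscle form, stood at 26.7 and 23.0 FPKM in shCtrl and at 28.5 and 32.6 FPKM in shNME7. ENO2, the neuronal form, stood at 15.7 and 16.9 FPKM in shCtrl and at 19.2 and 16.9 FPKM in shNME7, and the nearest libraries of its groups were all but level. The log2 difference was 0.13 for ENO1 (95% interval -0.25 to 0.52), 0.29 for ENO3 (SE 0.15, 95% interval -0.08 to 0.66) and 0.14 for ENO2 (95% interval -0.20 to 0.48). ENO1 made up 93.7% to 94.3% of the summed enolase FPKM, ENO3 3.3% to 3.9% and ENO2 2.0% to 2.5%. The ratio of ENO1 to ENO3 was 26.4 and 28.7 in shCtrl and 25.0 and 24.0 in shNME7. It was lower in both shNME7 libraries, with a log2 difference of -0.17 and an exact two-sided permutation p of 0.333, the smallest possible. The ratio of ENO1 to ENO2 overlapped between the groups, at 44.8 and 39.0 in shCtrl and 36.9 and 46.3 in shNME7.

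Pyruvate kinase makes the last ATP of the pathway, and here it was PKM alone to within 0.02% of the family's FPKM. PKM stood at 233 and 213 FPKM in shCtrl and at 204 and 243 FPKM in shNME7, with means of 223 ± 14.6 and 223 ± 28.01 FPKM. The groups overlapped and the 95% interval of the log2 difference was -0.39 to 0.39. Gene-level values do not separate the M1 and M2 splice forms of PKM. PKLR, the liver and red cell isoform, had 3 fragments in shNME7 2 and 0 in the other libraries.

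Lactate dehydrogenase held the largest difference of the 26 genes on the log2(FPKM + 1) scale, though as a plain ratio of means SLC2A3 differed more. LDHA (ENSG00000134333, chr11:18394388-18408425, plus strand, GRCh38) had 315 and 332 FPKM in shCtrl and at 336 and 320.5 FPKM in shNME7. The 2 shCtrl values bracketed the lower shNME7 value, so the groups overlapped. The means were 324 ± 12.04 and 328 ± 11.1 FPKM, and the log2 difference was 0.02 (SE 0.15, 95% interval -0.33 to 0.37) with a limma-trend adjusted p of 0.978. Between 31133 and 33799 fragments lay behind each LDHA value.

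LDHB (ENSG00000111716, chr12:21635342-21757857, minus strand, GRCh38) had 14.3 and 19.3 FPKM in shCtrl and at 29.3 and 30.7 FPKM in shNME7, from 678, 930, 1312 and 1556 fragments. Both shNME7 libraries were above both shCtrl libraries, and the gap between the groups was wider than the gap within either. The means were 16.8 ± 3.57 FPKM in shCtrl and 29.99 ± 1.02 FPKM in shNME7, or 1.78-fold higher in shNME7. The log2 difference was 0.81 (SE 0.17, 95% interval 0.39 to 1.23) with an unadjusted p of 0.0030. After adjustment over all genes the limma-trend p was 0.544, and limma-voom gave 0.85 (SE 0.18) with an adjusted p of 0.133. LDHB was 71st of the 12866 genes by p and 180th by the size of its difference, so it did not pass the test. Without shNME7 1 the adjusted p was 0.0037, and without shNME7 2 it was 0.015, both below 0.05. Without shCtrl 1 it was 0.522 and without shCtrl 2 it was 0.051. Fits with 1 library left out called 112 to 632 of all genes, so such a call is less rare there, and each assumes that the lone library varies like the other group.

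The ratio of LDHA to LDHB was 22.1 and 17.2 in shCtrl and 11.5 and 10.4 in shNME7. Both shNME7 libraries had a lower ratio than both shCtrl libraries, with means of 19.6 ± 3.45 and 10.96 ± 0.75. The ratio was 1.78-fold lower in shNME7, a log2 difference of -0.83. The exact two-sided permutation p was 0.333, the smallest that 2 libraries against 2 allow, and 1.0 after adjustment over 12 ratios. The difference of the ratio came from its LDHB term, since the LDHA means differed by 0.02 in log2. LDHB made up 4.3% and 5.5% of the lactate dehydrogenase FPKM in shCtrl and 8.0% and 8.7% in shNME7, with LDHC at 0. On the deposited values LDHA thus remained above 90% in every library. With the exon bases that LDHB shares with AC010197.2 left out of its length, the ratio was 14.7 and 11.4 in shCtrl and 7.65 and 6.95 in shNME7. This rescales LDHB alike in every library, so the log2 difference between the groups is the same by construction.

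**Figure D5:**
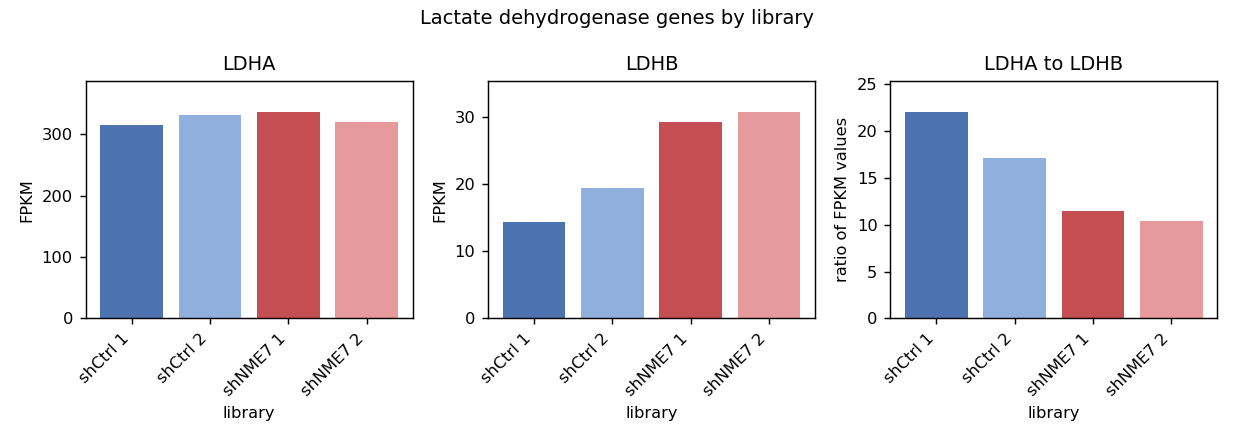
Bars give the FPKM of LDHA (left) and LDHB (middle) and the ratio of LDHA to LDHB (right) in each library, all axes starting at 0. LDHA lies between 315 and 336 FPKM in all 4 libraries, LDHB is higher in both shNME7 libraries, and the ratio is above 17 in both shCtrl libraries and below 12 in both shNME7 libraries.

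Lactate leaves or enters the cell through monocarboxylate transporters. SLC16A1 (MCT1), which works in both directions, stood at 53.1 and 56.3 FPKM in shCtrl and at 53.8 and 46.2 FPKM in shNME7. SLC16A3 (MCT4), the exporter of strongly glycolytic cells, stood at 58.7 and 40.6 FPKM in shCtrl and at 40.2 and 63.3 FPKM in shNME7. Both genes overlapped between the groups, with log2 differences of -0.13 (95% interval -0.48 to 0.22) for SLC16A1 and 0.05 (95% interval -0.60 to 0.69) for SLC16A3. Each group held a library with a high and a library with a low SLC16A3 level, and its transcript has a GC content of 62.7%. The ratio of SLC16A1 to SLC16A3 was 0.90 and 1.39 in shCtrl and 1.34 and 0.73 in shNME7, so the more abundant transporter differed between libraries of the same group. SLC16A1 made up 40.7% to 54.6% of the summed FPKM of SLC16A1, SLC16A3, SLC16A7 and SLC16A8, and SLC16A3 39.4% to 55.7%.

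The remaining ratios did not separate the groups. HK1 to HK2 was 1.67 and 1.505 in shCtrl and 1.47 and 1.89 in shNME7. PFKM to PFKP was 0.43 and 0.48 in shCtrl and 0.53 and 0.44 in shNME7. PFKL to PFKM was 0.71 and 0.53 in shCtrl and 0.53 and 0.68 in shNME7. These 3 describe a balance of housekeeping to inducible hexokinase and of phosphofructokinase subunits that varied as much within a group as between groups. ALDOA to ALDOC was 0.10 and 0.08 in shCtrl and 0.06 and 0.10 in shNME7. PFKFB3 to PFKFB4 was 1.96 and 2.12 in shCtrl and 1.97 and 2.41 in shNME7. Of the 15 ratios listed, PKM to PKLR, PFKFB3 to TIGAR and SLC2A1 to SLC2A2 had a term too low to compute.

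The neighbouring pathways were described by lists of known components, and limma-trend called 0 genes in each list. Of 12 pentose phosphate pathway genes 10 were tested, 3 of them higher in both shNME7 libraries (against 17.8% of all tested genes) and none lower (against 18.4%), with a median log2 difference of 0.06. RPIA, which isomerises ribose 5-phosphate, stood at 12.7 and 12.1 FPKM in shCtrl and at 13.7 and 15.0 FPKM in shNME7. PRPS1, which turns ribose 5-phosphate into the precursor of nucleotides, stood at 58.5 and 60.0 FPKM in shCtrl and at 65.7 and 68.6 FPKM in shNME7. These 2 genes were higher in both shNME7 libraries, and TALDO1 (transaldolase) overlapped, with a log2 difference of 0.12.

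All 14 genes of pyruvate entry to mitochondria were tested, 3 higher (21.4%, against 17.8% of all tested genes) and 4 lower (28.6%, against 18.4%) in both shNME7 libraries, with a median log2 difference of -0.02. PDP1, the phosphatase that activates pyruvate dehydrogenase, stood at 8.61 and 9.34 FPKM in shCtrl and at 6.86 and 6.16 FPKM in shNME7. PDP2, another form of it, stood at 4.19 and 4.15 FPKM in shCtrl and at 5.26 and 5.61 FPKM in shNME7. The 2 phosphatases thus stood in opposite order between the groups. DLD, the shared E3 subunit, was lower in both shNME7 libraries with a log2 difference of -0.22, and PDK4, an inhibiting kinase, overlapped (-0.30).

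Of 8 genes of gluconeogenesis 4 were tested, and FBP1 and G6PC had 0 fragments in all libraries. PCK2, the mitochondrial phosphoenolpyruvate carboxykinase, stood at 41.0 and 31.1 FPKM in shCtrl and at 24.1 and 24.5 FPKM in shNME7. It was lower in both shNME7 libraries, with a log2 difference of -0.54. SLC37A4, the glucose 6-phosphate carrier of the endoplasmic reticulum, was higher in both (0.34), and PC (0.09) and G6PC3 (0.05) overlapped. Of 14 other sugar and monocarboxylate transporters 6 were tested, and SLC16A7 (MCT2) was lower in both shNME7 libraries, at 5.06 and 6.15 FPKM in shCtrl and 4.19 and 3.28 FPKM in shNME7. SLC2A8 (0.26), SLC2A6 (0.16) and SLC2A4 (0.11) overlapped. Of 14 genes listed as other isoforms or related enzymes of glycolytic steps, only ADPGK and LDHD reached the test. Both were higher in both shNME7 libraries, with log2 differences of 0.18 and 0.36. Over all tested genes 17.8% stood higher and 18.4% lower in both shNME7 libraries, the background for each such order in these lists.

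All 11 regulators of glycolytic genes were tested, 1 higher (9.09%, against 17.8% of all tested genes) and 5 lower (45.5%, against 18.4%) in both shNME7 libraries. Their median log2 difference was -0.17, against 0.01 over all tested genes. EPAS1, which encodes the hypoxia factor HIF-2alpha, stood at 21.0 and 21.5 FPKM in shCtrl and at 16.5 and 15.5 FPKM in shNME7, a log2 difference of -0.39. PPARGC1A, a coactivator of mitochondrial genes, stood at 2.21 and 2.50 FPKM in shCtrl and at 1.44 and 1.34 FPKM in shNME7, a log2 difference of -0.49. EGLN3, a prolyl hydroxylase that is itself a target of hypoxia factors, was lower in both shNME7 libraries (-0.34), and TXNIP, an inhibitor of glucose uptake, overlapped (-0.28). The smallest limma-trend adjusted p in this list was 0.728, so none of these differences passed the test.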

How the data were processed

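Each library came as 1 table in which the authors deposited FPKM values for 58735 genes, as the file headers name them. HISAT2 2.0.5 and the build hg18 are listed, per the submitters' processing notes. Which counter, annotation and filters were applied is not given in the sources used here. GENCODE release 29 on GRCh38 held every gene ID and gave names, coordinates and exon lengths. FPKM times exon length gave whole fragments, within 0.01, for 100% of values above 0 in each library (15865321 and 16050268 fragments in shCtrl 1 and 2, 14877906 and 16991397 in shNME7 1 and 2). A count of 0 allows up to 3 fragments, or 0.177 to 0.202 CPM. Across the 6 pairs of libraries chi-square per degree of freedom was 12.5 to 38.9, so none was a copy of another. Floors and intervals cover counting error only.

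Groups came from the sample titles. The main test was limma-trend (limma 3.58.1, R 4.3.3) on log2(FPKM + 1) for genes with a mean of at least 1 FPKM, two-sided, with Benjamini-Hochberg adjustment over all of them and a threshold of 0.05. Differences on this scale understate those of low genes. The design named a count test for raw counts only. The files hold FPKM, so its choice for FPKM was used. Isoform ratios are ratios of FPKM where both genes had at least 0.5 FPKM or 30 fragments in every library, tested by exact permutation (scipy 1.17.1). Alternatives were a pseudocount of 0.1, no filter, limma-voom on recovered fragments (mean of at least 10, which called 16 genes), a loess fit on GC content and length subtracted from each library (span 0.3), the replicate number as a block, and each library left out. A crossed block, limma-voom without the trend and the LDHB length without shared bases were added after seeing the data. The scripts were tested on simulated data with known changes, whose spread may differ from that of these libraries. There, limma-trend called 40 of 105 genes changed 2-fold and 87 of 88 changed 4-fold, with 16 false calls. For limma-voom these were 83 of 108 and 92 of 92, with 6 false calls. In the real libraries limma-trend did not call NME7, whose mean was 5.18-fold lower in shNME7. A missing limma-trend call thus does not show that a 2-fold or larger change is absent.

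The members and lists were chosen with earlier results of these data known. All members are named. Full statistics are given for members whose groups do not overlap and differ by at least 0.3 in log2 and for LDHA and LDHB. Of each neighbouring list up to 4 genes with the largest differences are named, and some listed genes are not reported here. GAPDH, ENO3 and other genes given with statistics, and genes said to be at 0, were added after their values were seen.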

Additional observations from a re-analysis of the deposited data

How the results depend on the processing

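LDHB, SLC2A1, SLC2A3 and GAPDH kept their direction under all 11 alternatives (0.61 to 1.02, -0.40 to -0.23, -1.16 to -0.47 and -0.41 to -0.17 in log2), and the LDHA to LDHB ratio under the 10 run for it (-1.01 to -0.65). Of these, the block fits, the fit with no filter and the LDHB length without shared bases leave the size of a difference as it is by construction. Over all genes limma-voom called 16, or 12 once the trend with GC and length was taken out, limma-trend with that trend taken out called 1, and fits with 1 library left out called 112 to 632. With 1 library left out, 0 to 1 of the members were called (LDHB, without shNME7 1 or shNME7 2), 10 to 14 stood wholly higher and 6 to 9 wholly lower, and the median difference was -0.048 to 0.066. The larger counts without overlap follow from comparing fewer libraries. The matching shares over all tested genes in these fits are not given here, so the counts cannot be read against a background. The median difference of the members was -0.026 under limma-voom without the trend. The replicate block called 122 genes and no member (LDHB adjusted p 0.155). Libraries with the same number deviated in opposite directions (r = -0.35 over 12866 genes, and genes are no independent replicates). With 2 libraries per group this cannot show whether the numbers mark a shared culture. The crossed block called 0 genes. With 2 libraries per group, the width of the intervals limits what could be detected.

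Taking the trend with GC and length out of limma-trend turned the sign of small differences, to -0.013 for HK1, -0.034 for PFKP, 0.058 for PFKFB2, -0.034 for PFKFB3, -0.045 for SLC16A3, -0.029 for PC, 0.033 for ENO1 to ENO2 and -0.015 for PGAM1 to BPGM. Under limma-voom without the trend, the turned signs were -0.026 for HK1, -0.043 for PFKL, -0.067 for PFKP, 0.084 for PFKFB2, -0.061 for PFKFB3, -0.013 for TPI1, -0.10 for SLC16A3, -0.0076 for TALDO1, -0.0058 for SLC2A6 and -0.076 for PC. Leaving out 1 library gave both signs for several genes, as ranges in log2. They were -0.069 to 0.048 for ALDOC, -0.13 to 0.13 for PKM, -0.017 to 0.059 for LDHA, -0.051 to 0.067 for HK1, -0.14 to 0.38 for PFKL, -0.16 to 0.26 for PFKP, -0.13 to 0.044 for PFKFB2, -0.27 to 0.37 for SLC16A3, -0.0098 to 0.34 for SLC2A6, -0.061 to 0.23 for PC, -0.14 to 0.23 for G6PC3, -0.50 to 0.092 for ALDOA, -0.17 to 0.050 for HK2, -0.072 to 0.11 for PFKFB3, -0.0083 to 0.27 for TPI1 and -0.0098 to 0.23 for SLC2A4. Ratios with both signs were HK1 to HK2 (-0.11 to 0.25), PFKL to PFKP (-0.055 to 0.20), PFKM to PFKP (-0.035 to 0.22), PFKL to PFKM (-0.23 to 0.19), ALDOA to ALDOC (-0.67 to 0.13), ENO1 to ENO2 (-0.18 to 0.15), PFKFB3 to PFKFB4 (-0.050 to 0.24), SLC16A1 to SLC16A3 (-0.62 to 0.26) and PGAM1 to BPGM (-0.13 to 0.24). The cause of these turns was not tested.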
